A study of Homo sapiens with 6 samples.

Results

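Histone genes were examined after OCRL, the phosphoinositide phosphatase mutated in Lowe syndrome, was knocked down in HK2 cells, which are immortalised tubule epithelial cells from human kidney. The members were the probe sets whose platform symbols are all histone genes, which gave 77 of the 22215 probe sets tested and 72 of the 13119 genes named on the array. Of the 77, 63 belonged to replication-dependent histones and 14 to replacement histones. A single gene was named by 56 of them and several genes by 21, which are called shared here. A further 8 probe sets named the H3.3 genes H3-3A and H3-3B together with a pseudogene or a microRNA gene, fell outside the rule and are described apart.

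The OCRL siRNA group held 3 arrays of cells transfected with siRNA against OCRL, and the control siRNA group held 3 arrays of cells transfected with non-targeting siRNA. All cells received the same transfection reagent at 30% confluence and were harvested after 96 h, and the labels give the replicates of both groups as independent experiments. The siRNA sequences are not given in the sources used here, and 1 OCRL siRNA treatment in 1 cell line limits the model. Effects of lower OCRL and other effects of the OCRL siRNA cannot be told apart. Values are log2 intensities of Affymetrix probe sets. A difference is the OCRL siRNA mean minus the control mean on that scale, and a positive one means higher in OCRL siRNA cells.

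Histones wrap DNA into nucleosomes, with H2A, H2B, H3 and H4 forming the core and the linker histone H1 binding where the DNA enters and leaves. Replication-dependent histones are made in S phase from small genes without introns that stand in clusters, and their mRNAs typically end in a stem-loop bound by SLBP instead of a poly(A) tail. Replacement histones such as H2A.Z and H3.3 are made throughout the cell cycle from single genes with polyadenylated mRNA. The labels name a GeneChip labelling kit but not the primer of the first strand, so how far mRNAs without a poly(A) tail entered the measurement is not known.

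The arrays carried the knockdown. OCRL was at 7.52, 7.49 and 7.40 in OCRL siRNA cells, against 9.49, 9.48 and 9.50 in control siRNA cells, by the brighter of its probe sets (log2 difference -2.02, SE 0.048, limma adjusted p = 1.24e-05). The dimmer OCRL probe set fell less (log2 difference -1.01, SE 0.102, limma adjusted p = 7.64e-04), so the depth of the knockdown depended on the probe set. Array medians were 7.27 to 7.30 in OCRL siRNA cells and 7.23 to 7.24 in control siRNA cells. Of 15 kidney epithelial markers 6 were lower and 1 higher. The 6 were KRT7 (-1.49), CDH6 (-1.04), EPCAM (-0.81), KRT19 (-0.38), KRT8 (-0.38) and PAX8 (-0.29), of which KRT8, PAX8, CDH6 and EPCAM lay above the upper quartile of every array, as did KRT18 (-0.041, not called). Of the proximal tubule genes, LRP2, AQP1 and ANPEP (0.56, the 1 higher) were under the lower quartile on all arrays, and CUBN, SLC34A1 and SLC5A2 were between the quartiles on all arrays. CDH1 (0.059, not called) was under the lower quartile on all arrays, and PAX2 (-0.0039, not called) was between the quartiles on all arrays. Markers of other cell types gave 1 call among 8 fibroblast genes (LUM, lower), 1 among 8 endothelial genes (ERG, higher) and 0 among 6 blood cell genes (5 of leukocytes and the haemoglobin gene HBB) by limma, the last with 0 at an unadjusted p under 0.05. Of all probe sets tested by limma, 23.1% passed an adjusted p of 0.05, 13.2% higher and 9.89% lower. Of those that passed, 57.2% were higher as deposited and 42.0% after each array was centred on its median.

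Replication-dependent histones did not move as 1 group. Of their 63 probe sets, 3 rose and 10 fell, while 50 did not pass, so 20.6% passed in either direction beside the background of 23.1%. By direction, 4.76% of them rose beside 13.2% of all probe sets, and 15.9% fell beside 9.89%. The rises were in H1 and H4 and the falls in H2A and H2B, while no H3 probe set passed. The median log2 difference was 0.0460 over these probe sets and -0.00667 over all probe sets tested. Values of the groups did not overlap in 20 of the 63, or 31.7%, beside 40.7% of all probe sets.

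Some of these genes were dim on the arrays. In 20 of the 63 probe sets every array lay below its own lower quartile, which was 5.23 to 5.31, and 0 of those 20 passed. The same counts were not made over all probe sets, so neither is read as a trait of histones. Near-identical coding sequences also limit the assignment of signal to a gene. Of the 63, 20 were shared and 14 carried the suffix _x_at, which marks probe sets with probes that match other transcripts.

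**Figure D1:**
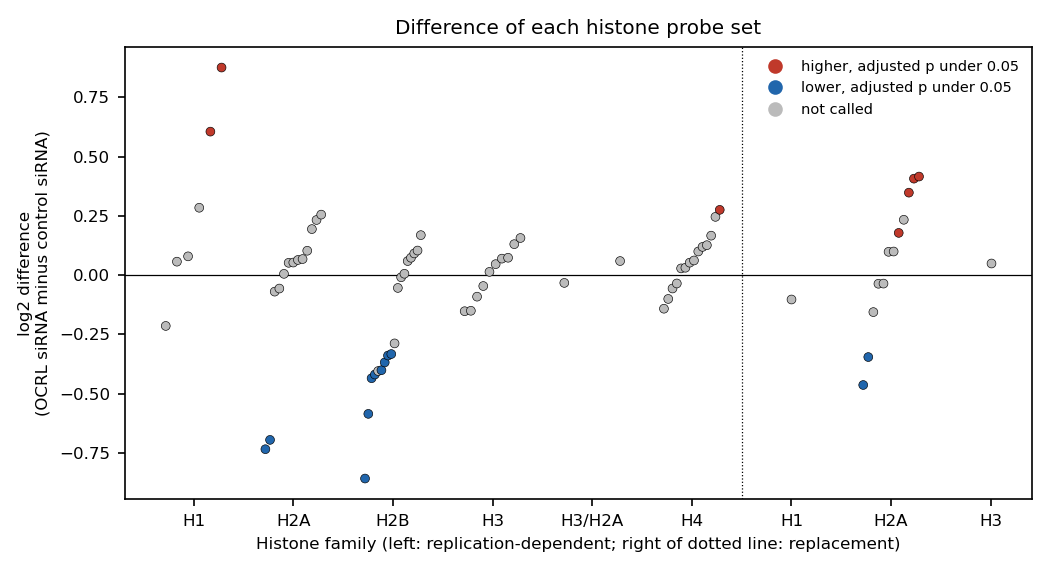
Log2 differences, OCRL siRNA minus control siRNA, of the 77 histone probe sets (vertical axis) by family (horizontal axis), replication-dependent families left of the dotted line and replacement histones right of it. Each point is 1 probe set, coloured by its call at an adjusted p of 0.05. H2B points reach down to -0.86 and H1 points up to 0.88.

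The linker histone genes H1-2 and H1-3 rose. H1-3 was at 8.73, 8.61 and 8.77 in OCRL siRNA cells, against 7.89, 7.97 and 7.61 in control siRNA cells. Every OCRL siRNA array lay above every control array, at means of 8.70 ± 0.0841 and 7.83 ± 0.192 (SD, n = 3 each). The difference was 0.88 (95% interval 0.637 to 1.114, limma adjusted p = 0.00125), the largest rise among the histone probe sets. H1-2 was at 8.94, 9.01 and 9.09 in OCRL siRNA cells, against 8.43, 8.51 and 8.28 in control siRNA cells, a 1.52-fold rise (log2 difference 0.61, SE 0.072, adjusted p = 0.00144). Its groups did not overlap either.

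The other 4 replication-dependent H1 probe sets did not pass. H1-5 differed by 0.28 (95% interval -0.035 to 0.603, limma adjusted p = 0.186) and H1-1 by -0.21 (-0.449 to 0.0197, adjusted p = 0.175), both below the lower quartile of every array. H1-4 differed by 0.079 (-0.258 to 0.415) and H1-6, the testis linker histone, by 0.057 (-0.153 to 0.266). In these 4 genes the arrays of the groups overlapped. Replication-dependent H1 thus gave 2 rises and 0 falls of 6, beside 13.2% of all probe sets that rose and 9.89% that fell, with 2 higher and 0 lower at an unadjusted p under 0.05.

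The promoters of the H1 genes that rose are shown because H1 promoters carry a sequence of their own. The 250 bases before the start are printed from RefSeq (GRCh38.p14), 5′ to 3′ on the strand of the gene. Capitals mark the H1 box AAACACA, the CCAAT box, the TATA box TATAAA and the octamer ATTTGCAT, searched on both strands.
H1-2 (chr6:26056471-26056720, minus strand): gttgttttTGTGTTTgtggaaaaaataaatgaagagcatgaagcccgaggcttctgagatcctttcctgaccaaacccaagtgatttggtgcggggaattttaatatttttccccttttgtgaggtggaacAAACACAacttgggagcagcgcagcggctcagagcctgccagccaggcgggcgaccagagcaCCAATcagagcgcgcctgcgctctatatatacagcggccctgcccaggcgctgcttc
H1-3 (chr6:26234988-26235237, minus strand): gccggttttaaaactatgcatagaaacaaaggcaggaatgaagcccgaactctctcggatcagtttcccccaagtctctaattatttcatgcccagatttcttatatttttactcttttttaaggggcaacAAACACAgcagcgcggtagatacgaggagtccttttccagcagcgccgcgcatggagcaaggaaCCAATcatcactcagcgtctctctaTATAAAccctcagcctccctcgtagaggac
The H1 box was found in 6 of 6 replication-dependent H1 promoters and in 4.95% of 27305 promoters searched over the same length. It stood in the promoters of H1-2 and H1-3 and in those of the 4 H1 genes that did not pass and in no H2A, H2B, H3 or H4 promoter searched. Of the 72 histone genes named, 66 had a promoter in the table.

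H2B was the family in which most probe sets fell. By limma 8 of the 18 H2B probe sets fell, 10 did not pass and 0 rose, beside 9.89% of all probe sets that fell. At an unadjusted p under 0.05, 10 were lower and 0 higher. The family median was -0.31.

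H2BC12, a histone H2B gene of the cluster on chromosome 6, had the largest fall of all histone probe sets. It was at 9.91, 9.89 and 9.94 in OCRL siRNA cells, against 10.81, 10.68 and 10.82 in control siRNA cells. The groups stood far apart beside their spread, at means of 9.91 ± 0.0236 and 10.77 ± 0.0740 (SD, n = 3 each), a 1.81-fold fall (log2 difference -0.86, SE 0.051, limma adjusted p = 9.98e-05). Its probe set is neither shared nor of the _x_at kind. H2BC12L, a closely related H2B gene, was at 8.73, 8.72 and 8.83 in OCRL siRNA cells, against 9.36, 9.30 and 9.38 in control siRNA cells (log2 difference -0.59, SE 0.051, adjusted p = 4.30e-04). H2BC12L lies on chromosome 21, outside the cluster on chromosome 6, and was classed as replication-dependent by its symbol. It was measured by an _x_at probe set, so signal of other H2B genes cannot be told apart from its own.

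The other H2B falls were smaller and also came mostly from _x_at probe sets. H2BC6 was at 7.94, 8.04 and 7.94 in OCRL siRNA cells, against 8.34, 8.47 and 8.41 in control siRNA cells (log2 difference -0.44, SE 0.053, limma adjusted p = 0.00156). H2BC5 was at 7.95, 8.07 and 7.97, against 8.53, 8.36 and 8.36 in control siRNA cells (-0.42, SE 0.064, adjusted p = 0.00420). H2BC9 was at 7.78, 7.63 and 7.80, against 8.06, 8.005 and 8.24 in control siRNA cells (-0.37, SE 0.078, adjusted p = 0.0151). In each of these genes all OCRL siRNA arrays were below all control arrays. The second probe set of H2BC5 was also lower on every OCRL siRNA array but did not pass (log2 difference -0.29, adjusted p = 0.0867).

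The 3 probe sets shared by H2BC4, H2BC6, H2BC7, H2BC8 and H2BC10 also fell, by 0.40, 0.34 and 0.33 on the log2 scale. The first of them, 214455_at, was at 4.73, 5.05 and 4.88 in OCRL siRNA cells, against 5.48, 5.15 and 5.24 in control siRNA cells, near the lower quartile (limma adjusted p = 0.0397). Its call was lost without OCRL siRNA replicate 1 or 3 (adjusted p = 0.106 each) and without control siRNA replicate 1 or 3 (0.0829 and 0.0807), and missed at 0.0599 after quantile normalisation. The second, 208523_x_at, passed at 0.0146 and missed the threshold at 0.0542 without OCRL siRNA replicate 3. The third, 208490_x_at, passed at 0.00873 and in every alternative run.

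By probe set kind, 6 of 7 _x_at probe sets of H2B fell, with differences of -0.59 to -0.29 over the 7, and 2 of the 11 others fell. Of the 8 H2B probe sets that name a single gene and are not _x_at, H2BC12 passed and 7 did not. Among the 7, H2BC21 was at 4.76, 5.07 and 4.78 in OCRL siRNA cells, against 5.06, 5.44 and 5.34 in control siRNA cells (log2 difference -0.41, limma adjusted p = 0.0558). Its groups overlapped, and it passed as lower in 7 of 11 alternatives. These were quantile normalisation (adjusted p = 0.0424), median centring (0.0314), trend and robust settings (0.0258), array weights (0.0123), the replicate block (0.0182), and leaving out OCRL siRNA replicate 2 (0.0345) or control siRNA replicate 1 (0.0246). The other 6, H2BC3, H2BC11, H2BC13, H2BC14, H2BC15 and H2BC17, did not pass, and H2BC15 had the highest difference of the family, at 0.17 (95% interval -0.148 to 0.485). For 5 of these 6 every array lay below its lower quartile.

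**Figure D2:**
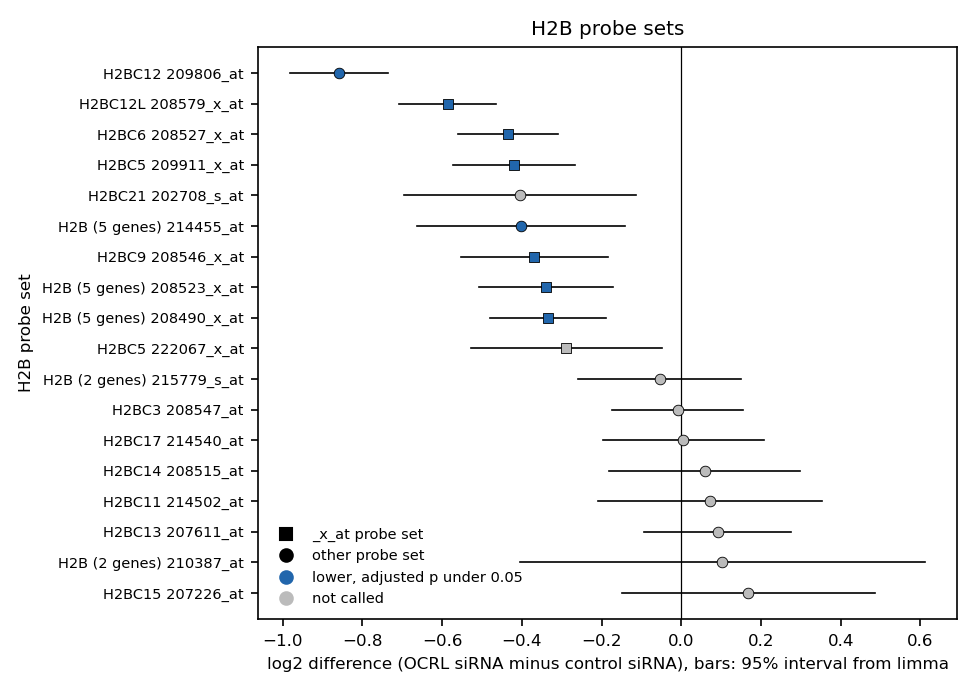
Log2 differences of the 18 H2B probe sets (horizontal axis, OCRL siRNA minus control siRNA) with 95% intervals from limma, ordered by difference, squares for _x_at probe sets and circles for the others. The squares lie between -0.59 and -0.29 and H2BC12 lies lowest at -0.86.

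Annotated gene length was looked at after the values of these genes were seen. Of 62 replication-dependent genes in the RefSeq table, 7 span more than 1000 bases and the others 386 to 797. The 7 include H2BC12 (8566 bases), H2BC5 (13229), H2BC4 (10757) and H2BC21 (2224), and outside H2B they are H3C4, H3C6 and H4C15. Of these H2B genes, H2BC4 was measured by shared probe sets alone and H2BC5 by _x_at probe sets alone, and H2BC21 did not pass. Genes that fell were also short ones: H2AC6 (519 bases, -0.74), H2BC12L (467, -0.59), H2BC6 (470, -0.44) and H2BC9 (462, -0.37). The last 3 were measured by _x_at probe sets and H2AC6 by an _s_at probe set, a kind also left out in 1 alternative. Of the long genes outside H2B, H3C6 differed by -0.15 (95% interval -0.502 to 0.197), and H3C4 and H4C15 were measured by shared probe sets alone.

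H2AC6, an H2A gene that faces H2BC4 across a shared promoter, fell as well. It was at 6.63, 6.72 and 6.56 in OCRL siRNA cells, against 7.46, 7.26 and 7.40 in control siRNA cells. The groups did not overlap, and the fall was 1.66-fold (log2 difference -0.74, SE 0.071, limma adjusted p = 6.28e-04). The other H2A call was the probe set 207156_at, shared by H2AC11, H2AC12, H2AC13, H2AC15, H2AC16 and H2AC17, at 5.40, 4.98 and 5.48 in OCRL siRNA cells, against 6.06, 6.08 and 5.81 in control siRNA cells (-0.70, SE 0.143, adjusted p = 0.0136). A second probe set with the same 6 symbols was at 6.94 in OCRL siRNA cells and 6.88 in control siRNA cells (difference 0.0675, adjusted p = 0.359), so the probe sets of these genes differed in their call. The other 11 of 13 H2A probe sets, that one included, differed by -0.0699 to 0.26 and did not pass. The highest of these were H2AC16 (0.26, below the lower quartile of every array) and H2AC14 (0.23, adjusted p = 0.0635). H2A thus gave 2 falls and 0 rises of 13, beside 9.89% of all probe sets that fell and 13.2% that rose.

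The promoters of H2A and H2B genes that fell are shown for their octamer, with the same motifs in capitals. H2AC6 and H2BC4 are transcribed in opposite directions, and the whole stretch between their starts is printed on the strand of H2AC6.
H2AC6 and H2BC4 (chr6:26123927-26124171, plus strand): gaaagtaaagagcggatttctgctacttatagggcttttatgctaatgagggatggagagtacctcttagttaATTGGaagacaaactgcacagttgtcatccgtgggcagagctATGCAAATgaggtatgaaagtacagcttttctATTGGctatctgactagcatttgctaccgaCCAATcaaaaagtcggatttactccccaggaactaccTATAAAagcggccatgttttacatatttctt
H2BC12 (chr6:27146859-27147108, minus strand): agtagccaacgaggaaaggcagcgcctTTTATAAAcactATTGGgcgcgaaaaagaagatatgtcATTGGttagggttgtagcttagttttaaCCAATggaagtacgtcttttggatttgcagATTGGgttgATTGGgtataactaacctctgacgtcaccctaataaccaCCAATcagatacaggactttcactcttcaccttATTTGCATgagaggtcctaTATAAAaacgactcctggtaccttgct
H2BC6 (chr6:26183511-26183760, plus strand): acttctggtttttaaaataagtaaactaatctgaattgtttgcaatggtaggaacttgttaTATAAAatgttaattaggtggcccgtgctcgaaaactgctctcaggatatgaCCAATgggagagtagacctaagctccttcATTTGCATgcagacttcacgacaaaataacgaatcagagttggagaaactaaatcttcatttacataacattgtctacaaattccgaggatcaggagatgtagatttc
H2BC9 (chr6:26251364-26251613, plus strand): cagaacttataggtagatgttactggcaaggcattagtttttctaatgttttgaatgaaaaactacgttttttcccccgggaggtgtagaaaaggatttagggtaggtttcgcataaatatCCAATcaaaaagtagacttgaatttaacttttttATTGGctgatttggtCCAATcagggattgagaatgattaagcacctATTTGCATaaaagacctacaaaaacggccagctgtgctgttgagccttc
The octamer ATTTGCAT stood in 12 of 15 H2B promoters and 8 of 13 H2A promoters of the replication-dependent class, beside 1.66% of all promoters, and in 0 of the H1 and H4 promoters. It was also in 1 of 9 H3 promoters, that of H3C4, whose window in the table is the same as that of H2AC7, so 1 stretch counts under both families. The octamer stood both in genes with lower signal (H2BC12, H2BC6, H2BC9, H2AC6) and in genes that did not pass (H2BC3, H2BC14, H2BC17), and was not found in this window of H2BC5. H2BC3, H2BC14 and H2BC17 lay below the lower quartile on every array, where a fall could hardly be seen. H2BC5, H2BC6 and H2BC9 were measured by _x_at probe sets, so their signal may come from other H2B genes. Whether the octamer bears on the falls was not tested. CCAAT stood in 15 of 15 H2B promoters and in 33.0% of all promoters.

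**Figure D3:**
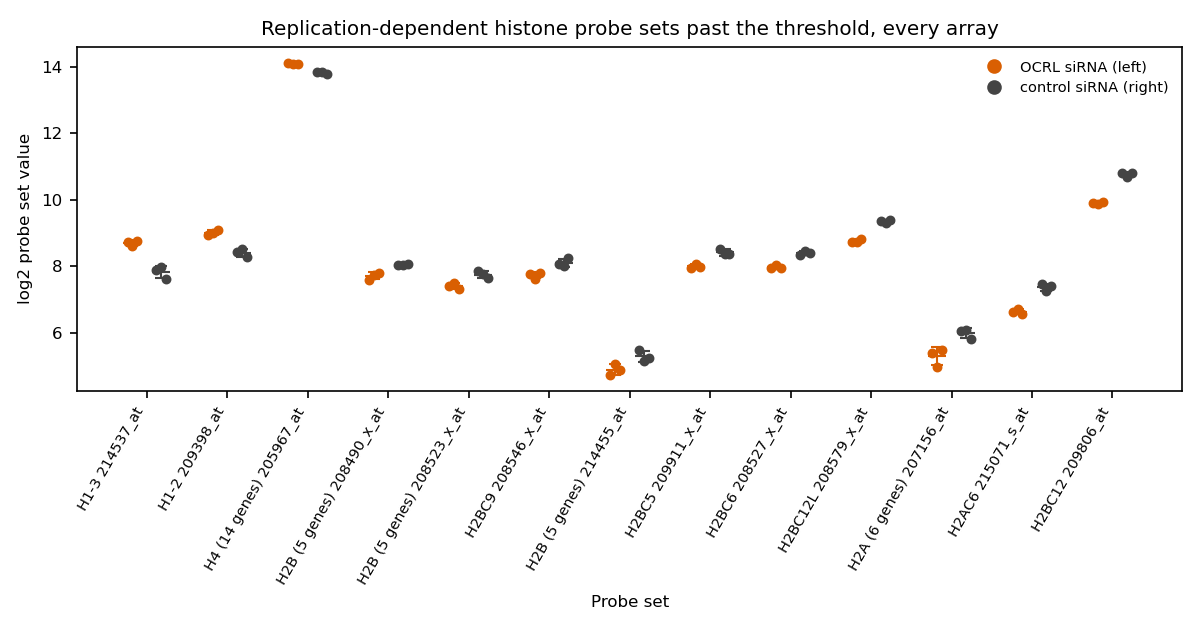
Log2 values on every array of the 13 replication-dependent histone probe sets that passed, OCRL siRNA left of control siRNA, with mean and SD of 3 arrays. H1-3, H1-2 and the shared H4 probe set lie higher in OCRL siRNA cells and the other 10 lie lower.

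Core histones H3 and H4 gave 1 call, a rise, beside 13.2% of all probe sets that rose and 9.89% that fell. The H4 probe set 205967_at, whose target accession belongs to H4C3 and which is shared by 14 H4 genes, was at 14.13, 14.08 and 14.09 in OCRL siRNA cells, against 13.85, 13.84 and 13.78 in control siRNA cells. The groups did not overlap, and it rose 1.21-fold (log2 difference 0.28, SE 0.044, limma adjusted p = 0.00504). The other 13 of 14 H4 probe sets did not pass, at differences of -0.14 to 0.25, with H4C5 the highest (0.25, 95% interval -0.129 to 0.620). Of the 5 probe sets that name the same 14 genes, 205967_at passed and the other 4 differed by -0.0356 to 0.17. The other 4 were far dimmer, with OCRL siRNA means of 3.65 to 7.56 against 14.10 for 205967_at. In 4 of the 14 H4 probe sets every array lay below its lower quartile.

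Of the 12 probe sets of replication-dependent H3 genes, 2 were shared with an H2A gene. By limma 0 of the 12 passed, beside 23.1% of all probe sets. At an unadjusted p under 0.05 there was 1, lower. Their differences ran from -0.15 to 0.16. It named H3-4, a testis H3 gene, at 5.12, 5.07 and 5.18 in OCRL siRNA cells, against 5.23, 5.27 and 5.33 in control siRNA cells (difference -0.15, adjusted p = 0.0753). The brighter of the pair shared with an H2A gene, which named H3C4 and H2AC7, differed by -0.033 (adjusted p = 0.916). In 7 of the 12 every array lay below its lower quartile.

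Replacement histones gave calls in H2A variants. By limma 4 of their 14 probe sets rose and 2 fell, with 8 not passing, or 28.6% higher beside the background of 13.2% and 14.3% lower beside 9.89%. With 14 probe sets for 10 genes, and several of the same gene, these shares count few genes.

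H2AX, the variant that is phosphorylated at DNA breaks and whose mRNA is known in a stem-loop and a polyadenylated form, rose by 1 of its 4 probe sets. That probe set, 205436_s_at, was at 11.11, 11.12 and 11.13 in OCRL siRNA cells, against 10.74, 10.78 and 10.79 in control siRNA cells (log2 difference 0.35, SE 0.041, limma adjusted p = 0.00135). It is the only one of the 4 above the upper quartile of every array. The others were dimmer and did not pass, at 0.23, 0.0993 and -0.16. H2AJ, a replacement H2A gene on chromosome 12, was at 5.63, 5.31 and 5.23, against 4.92, 4.95 and 5.08 in control siRNA cells (0.41, SE 0.107, adjusted p = 0.0353). H2AJ lay near the lower quartile, and its call was lost without OCRL siRNA replicate 2 (adjusted p = 0.0629) and without control siRNA replicate 1, 2 or 3 (0.0963, 0.0962 and 0.0571).

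H2A.Z, the variant placed at promoters and enhancers, is encoded by H2AZ1 and H2AZ2. H2AZ1 was at 13.65, 13.56 and 13.61 in OCRL siRNA cells, against 13.39, 13.46 and 13.43 in control siRNA cells, by probe set 200853_at. This was a 1.13-fold rise (log2 difference 0.18, SE 0.046, limma adjusted p = 0.0339), and the second probe set differed by 0.0981 (adjusted p = 0.241). The H2AZ1 call was lost without OCRL siRNA replicate 1 or 3 (0.0999 and 0.0998), without control siRNA replicate 1, 2 or 3 (0.0678, 0.0670 and 0.0910) and after median centring (0.108).

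The probe sets of H2AZ2 moved in opposite directions, so the gene has no single direction here. Probe set 202487_s_at was at 12.74, 12.67 and 12.74 in OCRL siRNA cells, against 12.23, 12.33 and 12.34 in control siRNA cells (log2 difference 0.42, SE 0.051, limma adjusted p = 0.00159). Probe set 212205_at was at 11.50, 11.48 and 11.46, against 12.09, 11.84 and 11.90 in control siRNA cells (-0.46, SE 0.070, adjusted p = 0.00388). Probe set 212206_s_at was at 9.28, 9.31 and 9.40, against 9.68, 9.65 and 9.70 in control siRNA cells (-0.35, SE 0.049, adjusted p = 0.00302). In all 3 probe sets the groups did not overlap. These 3 calls held in every alternative in which the probe set was kept.

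**Figure D4:**
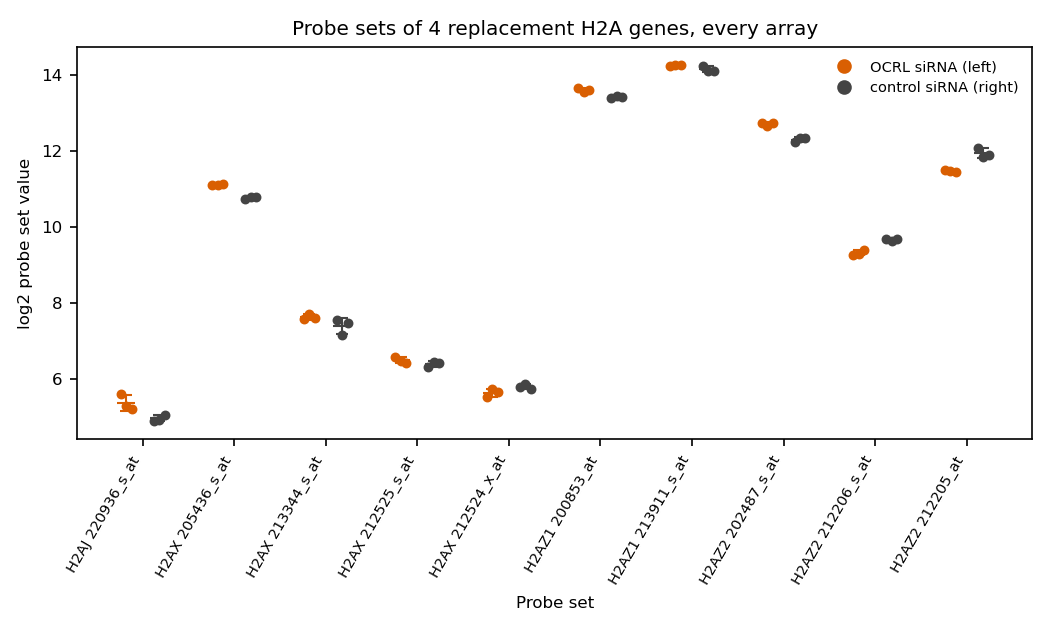
Log2 values on every array of the 10 probe sets of the replacement H2A genes H2AJ, H2AX, H2AZ1 and H2AZ2, OCRL siRNA left of control siRNA, with mean and SD of 3 arrays. One H2AZ2 probe set lies higher in OCRL siRNA cells and the other H2AZ2 probe sets lie lower.

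The remaining replacement histones did not pass. H1-10, a linker variant, was at 8.42 in OCRL siRNA cells and 8.52 in control siRNA cells (log2 difference -0.10, 95% interval -0.242 to 0.0397, limma adjusted p = 0.284). H3-3A was at 7.546 in OCRL siRNA cells and 7.496 in control siRNA cells by the probe set that names it alone (0.0495, -0.0670 to 0.166). H2AP and the shared H2AB1, H2AB2 and H2AB3 probe set, genes known from testis, differed by -0.0360 and -0.0367.

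The 8 probe sets outside the rule also measure H3.3, the replacement H3 encoded by H3-3A and H3-3B. The 4 that add the pseudogene H3P6 did not pass, at differences of -0.0675 to 0.0179. Of the 4 that add the microRNA gene MIR4738, 3 fell and 1 did not pass, so 3 of the 8 fell, beside 9.89% of all probe sets. Probe set 211999_at was at 12.53, 12.56 and 12.54 in OCRL siRNA cells, against 12.90, 12.90 and 12.89 in control siRNA cells (log2 difference -0.35, SE 0.039, limma adjusted p = 0.00107). Probe set 211998_at fell by 0.38 (adjusted p = 0.0241) and 211997_x_at by 0.15 (0.0479). The remaining one, 209069_s_at, differed by -0.12 (adjusted p = 0.0900). By limma all 4 probe sets with MIR4738 were lower at an unadjusted p under 0.05, and 0 of the 4 with H3P6 reached that p. The H3.3 signal thus depended on the probe set, and the split followed the annotation.

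Genes that make and carry histones were taken from lists. By limma, 26 measured genes of histone mRNA transcription and processing gave 7 rises and 1 fall, with 18 not passing, beside 15.5% of 11963 genes that rose and 10.5% that fell (26% in either direction). NPAT, the coactivator of histone genes at the histone locus body, was at 9.72 ± 0.0215 in OCRL siRNA cells and 9.28 ± 0.0571 in control siRNA cells (SD, n = 3 each, log2 difference 0.44, adjusted p = 8.91e-04), and 2 of its 3 probe sets rose. ZNF473, a factor of histone pre-mRNA processing, rose by 0.64 (SE 0.055), and the cyclin genes CCNE2 and CCNE1, which activate CDK2 at the start of S phase, rose by 0.51 (SE 0.066) and 0.44 (SE 0.041). The cleavage stimulation factor gene CSTF3 fell by 0.21, named because it was the 1 fall. SLBP, named after its value was seen, differed by -0.00784 (95% interval -0.104 to 0.0880, adjusted p = 0.919). The median of the list was 0.0273, beside 5.03e-04 over all genes. All 26 lay above the lower quartile on every array, while the background also counts dim genes, so its shares are not matched for signal.

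Of the histone chaperones, the 36 measured gave 11 rises and 4 falls, with 21 not passing and a median of 0.0400. That was 30.6% higher and 11.1% lower, beside 15.5% and 10.5% of all genes, so the share of falls was near the background. Of the 36, 33 lay above the lower quartile on every array, while the background also counts dim genes. The shares are thus not matched for signal. ASF1B, which hands H3 and H4 to the replication fork, rose by 0.64 (SE 0.042, limma adjusted p = 1.50e-04), and HJURP, the chaperone of the centromere histone CENP-A, by 0.61 (SE 0.047). The centromere factor gene OIP5 rose by 0.40 (SE 0.045) and the H3 and H4 co-chaperone gene DNAJC9 by 0.35 (SE 0.040). CENPA itself, the centromere H3 variant outside the member rule, rose by 0.31 (SE 0.043, adjusted p = 0.00277). The 4 falls, named because they were few, were TSPYL1, a relative of the nucleosome assembly proteins, by 0.31, SUPT6H, a chaperone of transcription elongation, by 0.33, the nucleoplasmin gene NPM3 by 0.18, and the histone importin gene IPO4 by 0.20.

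DNA replication genes moved beside these histone changes. By limma 29 of 34 measured S phase and DNA replication genes rose (85.3%, beside 15.5% of all genes), 5 did not pass and 0 fell (beside 10.5%), and at an unadjusted p under 0.05 31 were higher and 0 lower. TK1, PRIM1, CDC45 and MCM7 had the smallest p, with differences of 0.93, 0.65, 0.78 and 0.59, and the list median was 0.38. Its summed log2 level was 368.6 to 369.2 in OCRL siRNA cells and 354.7 to 356.3 in control siRNA cells. All 34 genes lay above the lower quartile on every array, while the background also counts dim genes. How far the S phase genes bear on the rises of H1-2, H1-3, 1 of 4 H2AX probe sets and 1 of 14 H4 probe sets, or on the 10 falls in H2A and H2B, was not tested, and in RNA of whole cultures more cells in S phase and more mRNA per cell cannot be told apart.

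**Figure D5:**
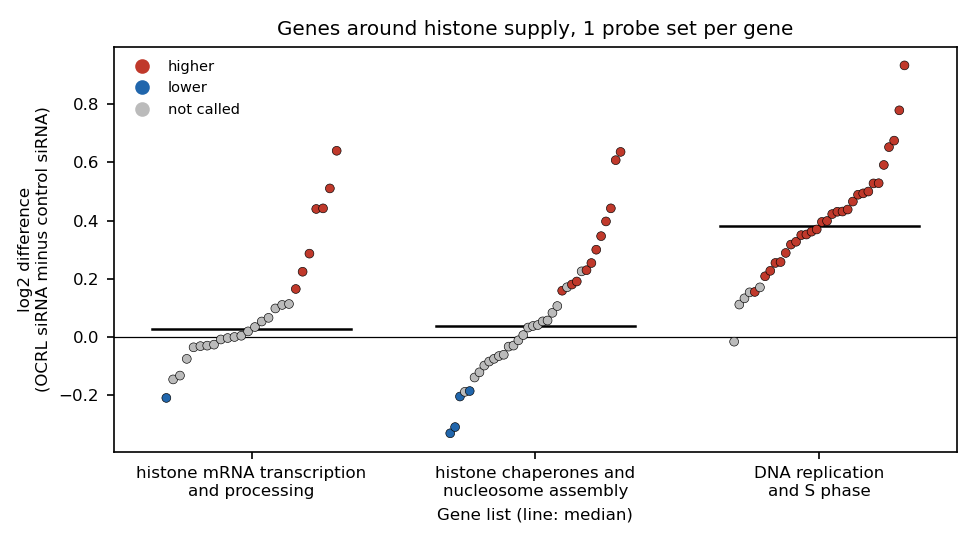
Log2 differences (vertical axis, OCRL siRNA minus control siRNA) of genes of histone mRNA transcription and processing, histone chaperones, and DNA replication and S phase, 1 probe set per gene, with a line at each median. The medians are 0.0273, 0.0400 and 0.38.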

How the data were processed

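Total RNA of HK2 cells was labelled with biotin and hybridised to 1 Affymetrix array per sample, per the labels' protocols. The authors deposited log2 intensities per probe set, made with affy and RMA per the submitters' processing notes. Their versions are not given in the sources used here. RMA brings arrays close to a common distribution, and at low signal its differences are compressed. Array medians still differed between the groups in the deposited values. Of 22277 probe sets, 62 AFFX controls were left out. Symbols came from the platform annotation in GEO, and all 72 histone genes matched a RefSeq table (GRCh38.p14) with 0 symbols changed. Groups were compared over all 22215 probe sets with limma 3.58.1 in R 4.3.3 (two-sided, group as the only term, Benjamini-Hochberg over all probe sets, threshold 0.05), checked on simulated data. The number of arrays limits the precision.

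Genes of other lists were represented by their brightest probe set with 1 symbol. Every histone probe set that passed was named, with the 3 highest and 3 lowest differences among the rest of each class and the brightest of each family, and from each list up to 4 called genes with the smallest p. H2AX was classed as a replacement histone, and H2BC12L as replication-dependent by its symbol. The members, lists and rules were chosen with earlier results of these data known. Promoter windows came from RefSeq (GRCh38.p14), the first listed start per gene. Alternatives were a replicate block, leaving out each array in turn, quantile normalisation, median centring, limma's trend with robust settings, array weights, removal of dim probe sets (a mean below the median), _s_at and _x_at probe sets left out, shared probe sets left out, 1 probe set per gene and another class for H2AX. Python 3.11.15 with matplotlib 3.10.9 drew the figures.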

Additional observations from a re-analysis of the deposited data

How the results depend on the processing

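Of the 19 histone probe sets that passed, 15 kept their direction and their side of the threshold in every alternative in which they were measured, and 0 of the 19 changed direction in any alternative. The exceptions were H2AJ 220936_s_at, H2AZ1 200853_at and, among the H2B probe sets shared by 5 genes, 214455_at and 208523_x_at. OCRL, measured by _s_at probe sets, fell by the brighter of them in the 12 alternatives that kept it, at -2.07 to -1.99. Without 1 array at a time, the replication-dependent probe sets called were 3 to 5 higher and 8 to 11 lower, and the replacement ones 2 to 3 higher and 2 lower. The 5 higher came without control siRNA replicate 3, and the 2 replacement rises without control siRNA replicate 1, 2 or 3. All probe sets called numbered 3576 to 4898, against 5137 with all arrays. With dim probe sets left out, 5 replication-dependent probe sets were higher. With _s_at and _x_at probe sets left out, 2348 probe sets were called in all, 3 replication-dependent ones lower, 1 replacement one higher and 1 lower, fewer probe sets being tested. With shared probe sets left out, or with 1 probe set per gene, 6 replication-dependent ones were lower, and with 1 per gene 0 replacement ones by limma. With the H3.3 probe sets outside the rule counted, an alternative chosen after seeing the data, 5 replacement ones were lower.

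The replicate numbers gave at most a weak pairing: correlations of same-numbered deviations were 0.142, 0.123 and -0.00948. Of 6 samples 4 correlated best with their own number, so a partial pairing is possible. With the replicate block, 4571 probe sets were called in all, and 2 replacement rises were left in place of 4 (H2AJ 0.0679 and H2AZ1 0.0816, adjusted p). The shared H2B probe set 214455_at had 0.0940, and H2BC21 (0.0182) and the second H2BC5 probe set (0.0193) were called lower. The median difference of the 77 histone probe sets was 0.0495 as deposited, against 0.0369 with quantile normalisation and 0.00355 with median centring. Of the 58 probe sets that did not pass, 14 were followed singly, and of these H2BC21, H2BC5 222067_x_at and H2AZ1 213911_s_at passed in at least 1 alternative. Dim signal limits what can be said of 21 histone probe sets below the lower quartile on every array.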
